A study of Mus musculus with 2 samples.

Results

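The antioxidant, thiol and ferritin genes were examined in 2 RNA-seq libraries of macrophages from the dorsal root ganglia of mice, which house the cell bodies of sensory neurons. The 34 genes were taken by name from the 49315 genes of the count table. They cover peroxiredoxins, thioredoxin, glutathione, superoxide and hydrogen peroxide removal, NADPH supply, haem breakdown, ferritin and the NRF2 regulators, and all 34 were listed there once. One library came from mice under normoxia, which were sham-treated and kept at 21% oxygen. The other came from mice under chronic intermittent hypoxia (CIH), a model of sleep apnoea in which chamber oxygen swung between 21% and 8%. A cycle lasted 6 min, exposure ran for 8 h daily over 14 days, and samples were taken about 18 h after it ended. The sources used here give neither strain, sex and age nor the number of mice per library, nor how macrophages were obtained. The column for CIH was recognised by its initial alone. Each group had 1 library, so no difference has a replicate check, no p-value was computed, and intervals cover counting error only.

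Cells make superoxide and hydrogen peroxide in respiration and, in phagocytes, through the NADPH oxidase. Superoxide dismutases turn superoxide into peroxide, and catalase, glutathione peroxidases and peroxiredoxins remove the peroxide, the last with electrons that reach them from NADPH through thioredoxin or glutathione. Macrophages also take up haem from old red cells, open its ring with haem oxygenase and store the freed iron in ferritin, and the transcription factor NRF2, held in check by KEAP1, drives many of these genes.

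Total counts were 2171348 in normoxia and 145056 in CIH, a 15.0-fold difference. A counted gene had a median of 230 counts in normoxia and 42 in CIH. Genes counted in 1 library alone had a median of 229 counts in normoxia and 39 in CIH, and these were used as an estimate of reads per starting molecule. On that estimate the 34 genes together rest on 163 molecules in normoxia and 61.1 in CIH, and 3 molecules of the CIH library equal 1751 counts in normoxia at equal shares of the totals. The unit is rough, since some counted members come out below 1 molecule, such as Sod2 in normoxia (0.017) and Gclm in CIH (0.31). Each ratio below is CIH over normoxia with a 95% interval on reads, and where stated also on estimated molecules. Gene ratios were scaled by TMM, a trimmed mean over genes counted in both libraries. Ratios by total counts are higher by 0.80 on the log2 scale and ratios by a housekeeping list by 0.59, and a direction that turns with the scaling is named.

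As a whole the 34 genes held a like share of the total counts of both libraries. They took 37265 counts in normoxia, 1.72% of the total (95% interval 1.70 to 1.73), and 2384 counts in CIH, 1.64% (1.58 to 1.71). The ratio of the shares was 0.958 (0.918 to 0.998 on reads, 0.702 to 1.29 on molecules). It was 0.549 with TMM (0.402 to 0.741 on molecules) and 0.824 with the housekeeping list (0.604 to 1.11). Without Fth1, the gene with most counts, it was 1.08 (1.04 to 1.13 on reads), so its direction on total counts rests on that gene.

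Of the 34 genes, 25 were counted in normoxia, 17 in CIH and 14 in both, while 6 had no count in either (Prdx4, Srxn1, Txn2, Gss, Slc7a11 and Nqo1). A gene met the size rule when its ratio was at least 2-fold, its interval on reads excluded 1, and it had at least 50 counts over both libraries. Of the 25 genes with enough counts, 3 were higher in CIH (Nfe2l2, Sod2 and Prdx6), 16 were lower and 6 met neither. Of the 16 lower, 10 had 0 counts in CIH, as had 2883 of the 3192 lower genes of the whole table. Such genes reached 50 counts through normoxia alone, which with TMM fixed their call. Prdx6 reached it through CIH alone. Over all 4215 genes with enough counts, 11.9% were higher and 75.7% lower, so the 12.0% and 64.0% among the 34 genes lie near the shares of the table as a whole. On estimated molecules 2 of the 25 were lower (Fth1 and Prdx2) and none higher, where all genes gave 1.3% and 0.19%. With total counts none of the 25 was lower on molecules, and with the housekeeping list Fth1 alone was, where all genes gave 0.38% and 0.522% (higher, 0.83% and 0.593%). On reads 6 of the 25 were higher and 14 lower with total counts, beside 16.1% and 71.5% of all genes. With the housekeeping list 4 were higher and 14 lower, beside 15% and 73.1%. Among the 14 members counted in both libraries 6 were lower and 2 higher, beside 27.9% and 24.9% of the 1108 such genes.

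The members counted in normoxia had a median of 481 counts there, against 230 for all counted genes. The median log2 ratio of the 25 genes was −1.91, against −5.25 over all genes with enough counts. Of those 4215 genes 2883 were lower at 0 counts in CIH, but only 10 of the 25 members. The −5.25 thus belongs to genes at 0, whose ratio rests on the normoxia count and the prior count of 0.5. The gap to −1.91 therefore does not show that members fell less. Restricted to genes with counts in each library, the medians were −0.51 (14 members) and −0.10 (all such genes). On total counts these became 0.29 and 0.69.

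**Figure D1:**
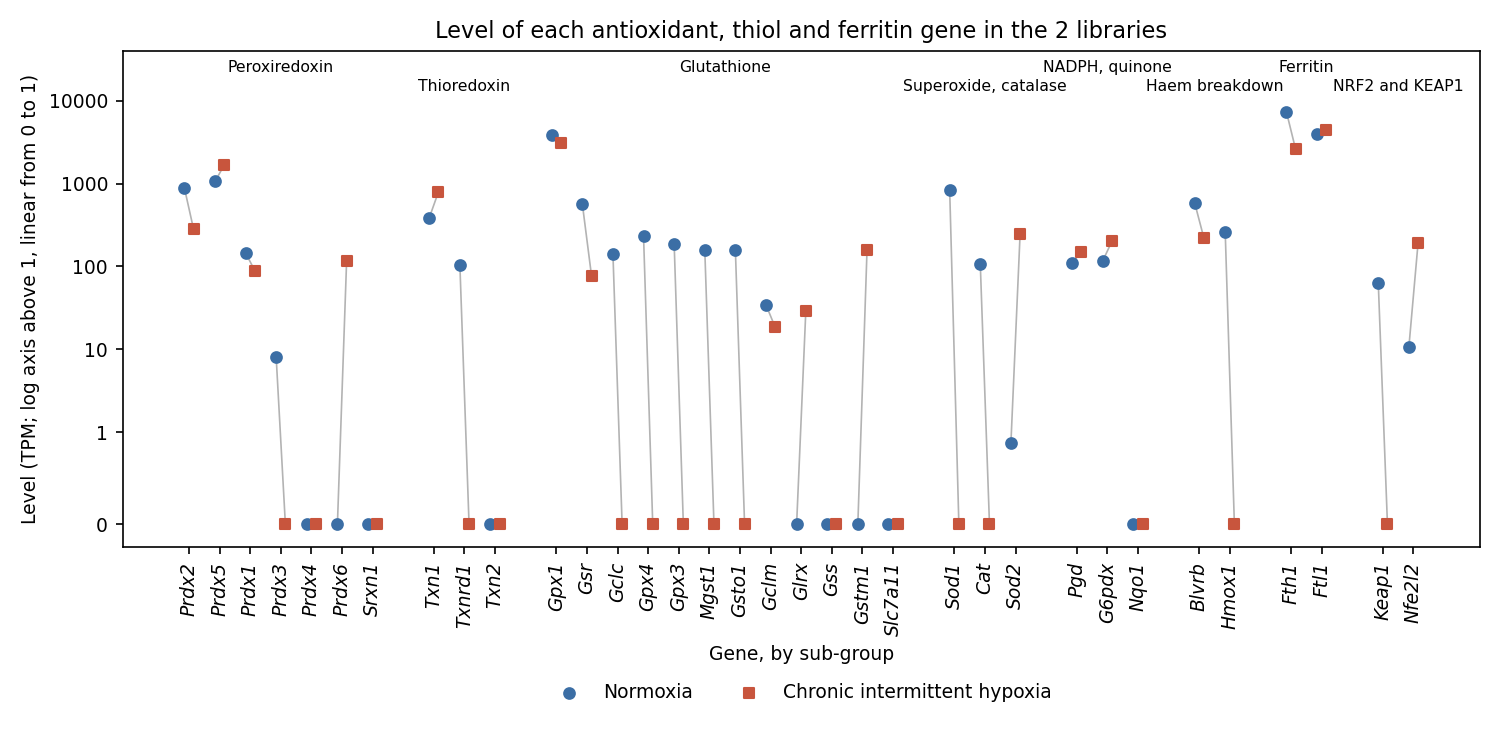
Level of each of the 34 genes in TPM (a count adjusted for transcript length and library, log axis above 1 and linear from 0 to 1) in the normoxia library (circles) and the CIH library (squares), 1 library each and no error shown, ordered by sub-group and by counts in normoxia. Fth1, Ftl1 and Gpx1 stand highest in both libraries, and 11 genes counted in normoxia sit at 0 in CIH, as do 3482 of the 4640 such genes of the whole table.

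**Figure D2:**
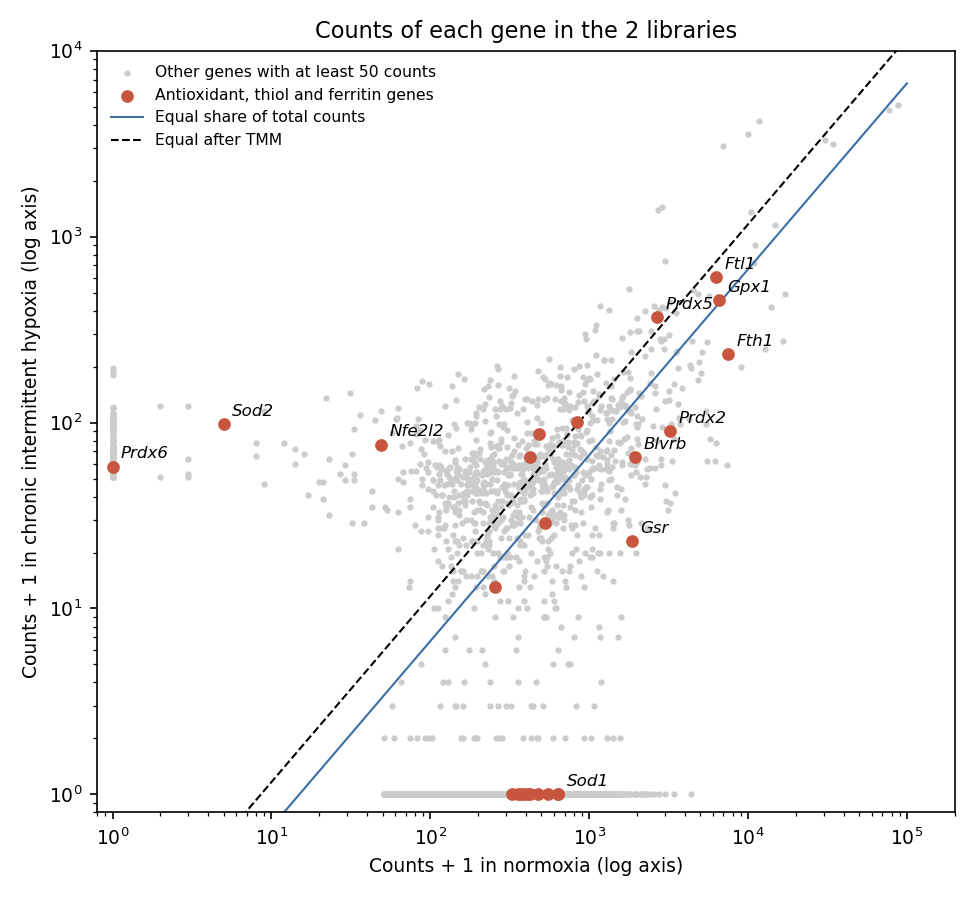
Counts plus 1 of each gene in normoxia (x) against CIH (y), both on log axes, for members (large points) and other genes (small points), all with 50 counts or more in the sum of both. The solid line marks equal shares of total counts and the dashed line equality after TMM. Fth1, Prdx2, Blvrb and Gsr lie below both lines, and Sod2, Nfe2l2 and Prdx6 above both.

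Ferritin was the largest sub-group and its make-up differed between the libraries. Ferritin is a shell of heavy and light chains that stores iron, and the heavy chain, encoded by Fth1, oxidises the iron on entry while the light chain, encoded by Ftl1, helps to form the mineral core. Fth1 (chromosome 19, 9980598 to 9985098, plus strand, on GRCm38 as are all positions here) had 7517 counts in normoxia and 232 in CIH. Its level in TPM, a unit adjusted for transcript length and library, was 7314 and 2593, rank 12 and rank 42 among the genes of each library. Fth1 was lower in CIH under each scaling, with a TMM ratio of 0.265 (0.231 to 0.302 on reads, 0.090 to 0.642 on molecules). On total counts the ratio was 0.462, with an interval of 0.157 to 1.12 on molecules. Ftl1 (chromosome 7, 45457944 to 45459884, minus strand) had 6319 and 607 counts, and 3973 and 4385 TPM. Its TMM ratio of 0.824 (0.757 to 0.896 on reads, 0.413 to 1.59 on molecules) did not meet the size rule, and its direction turned with total counts (1.44) and with the housekeeping list (1.24). Normoxia thus held 1.19 Fth1 reads per Ftl1 read and CIH 0.382, a 3.11-fold difference in which no scaling enters (2.66 to 3.65 on reads). On molecules rounded to whole numbers the interval was 0.985 to 11.0, so the shift in chains was at the limit of what the depth can show. The pair was chosen after the values were seen. Copies of ferritin genes listed in the table held few counts (Ftl1-ps1 had 74 and 1, and the other Ftl and Fth copies none), and reads that fit a gene and a copy equally well may be missing from both.

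Glutathione genes held the next largest share in normoxia. Gpx1, the abundant cytosolic glutathione peroxidase (chromosome 9, 108338903 to 108340343, plus strand), had 6585 and 456 counts and 3850 and 3063 TPM. Its TMM ratio was 0.594 (0.539 to 0.653 on reads, 0.273 to 1.21 on molecules), short of 2-fold, and 1.04 on total counts, so its direction turns with the scaling. Gsr, glutathione reductase, which restores reduced glutathione with NADPH (chromosome 8, 33652523 to 33698163, plus strand), had 1858 and 22 counts. It was 9.85-fold lower (6.48 to 15.8 on reads), with a ratio interval on molecules that reached 1.13. Gclm, the modifier subunit of the enzyme that starts glutathione synthesis, had 256 and 12 counts and a ratio of 0.402 (0.205 to 0.715), and met the size rule with TMM but not with total counts or the housekeeping list.

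A further 5 glutathione genes had 0 counts in CIH. They were the catalytic subunit Gclc (631 counts in normoxia), the peroxidases Gpx4 (473), which protects membrane lipids, and Gpx3 (403), which is secreted, and the transferases Mgst1 (381) and Gsto1 (365). A count of 0 allows up to 3 counts, and against that floor per library Gclc was at least 24.5-fold lower on reads and Gsto1 at least 14.2-fold. At 3 estimated molecules no such bound could be given for any of the 11 members at 0 in CIH, since the highest, Sod1 with 639 counts, lies under the 1751 counts above and under 1003 counts with TMM. Gstm1 had 0 and 24 counts and the glutaredoxin gene Glrx 0 and 4, both below the 50 counts of the size rule.

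Among the peroxiredoxins Prdx2 and Prdx5 led in normoxia and Prdx5 in CIH. Prdx2, a cytosolic peroxiredoxin that is abundant in red cells (chromosome 8, 84969587 to 84974834, plus strand), had 3217 and 89 counts and 889 and 282 TPM. It was 4.21-fold lower with TMM (3.41 to 5.26 on reads), with a ratio interval of 0.032 to 0.965 on molecules, and 0.055 to 1.69 on total counts. Prdx5, found in mitochondria, peroxisomes and cytosol (chromosome 19, 6906697 to 6910106, minus strand), had 2687 and 367 counts and 1058 and 1661 TPM. Its TMM ratio was 1.17 (1.05 to 1.31 on reads, 0.442 to 3.02 on molecules), and 2.04 on total counts, where it met the size rule. The libraries held 1.20 and 0.243 reads of Prdx2 per read of Prdx5, a 4.94-fold difference free of scaling (3.88 to 6.33 on reads, 0.809 to 56.8 on rounded molecules). This pair too was chosen after the values were seen. Prdx1 had 526 and 28 counts, a TMM ratio of 0.457 (up to 0.668 on reads) that missed the size rule on total counts. Prdx6, which has a single catalytic cysteine, had 0 and 57 counts, which is 1.46 estimated molecules, and Prdx3 of the mitochondrial matrix had 14 and 0. As a sub-group the peroxiredoxins took 17.3% of the members' counts in normoxia and 22.7% in CIH. Prdx5 alone took 7.21% and 15.4%, and the ratio without it was not computed. Without Prdx2 the ratio of the shares was 2.08. That is no check of the direction, since Prdx2's own share was lower in CIH (8.63% and 3.73%) and leaving it out could only raise the ratio.

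Red cell markers differed alongside Prdx2 and Blvrb, the biliverdin reductase that is likewise abundant in red cells. Blvrb (chromosome 7, 27447978 to 27466144, plus strand) had 1946 and 64 counts and a TMM ratio of 0.282 (0.216 to 0.362 on reads, 0.021 to 1.54 on molecules). Of 18 erythroid markers 17 were listed under their names, all 17 were counted in normoxia and 11 in CIH, with 10.3% and 8.18% of total counts. The 4 globin genes took 8.92% and 7.69%, and the 13 other markers 1.37% and 0.489%, a ratio of 0.358 (0.207 to 0.588 on molecules). The split at the globins was made after the values were seen. Hbb-bs (88388 and 5121), Hba-a1 (77183 and 4826) and Hbb-bt (17184 and 489 counts) led the list, and Slc4a1, Epb42, Klf1, Gata1 and Tspo2 were among those at 0 in CIH. Prdx2 and Blvrb had ratios on total counts of 0.414 and 0.492. Whether red cell RNA set their values was not tested. Fewer cells of a type and less RNA per cell cannot be told apart in such libraries.

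Macrophage and neutrophil markers also differed. Of 18 macrophage markers 15 were counted in normoxia and 5 in CIH, with 63241 and 3627 counts in all, led by the lysozyme gene Lyz2 (34028 and 3164 counts), shared with neutrophils, Apoe (12776 and 249) and Ctss (4825 and 168). Their ratio of shares was 0.859 (0.671 to 1.09 on molecules). Without Lyz2 they took 1.35% and 0.319% of total counts, a ratio of 0.237 (0.119 to 0.430 on molecules). The defining markers Adgre1, Cd68, Csf1r, C1qa, C1qb and C1qc were at 0 in CIH, so they do not show the labelled cell type in that library. Cx3cr1, on the same list, was counted in both (1170 and 6 counts), its 6 counts being 0.154 estimated molecules. Of the macrophage markers at 0 only Adgre1 was lower on molecules with TMM, and none was with total counts. Of those counted in both libraries, Apoe was lower on molecules with TMM, with total counts (0.107 to 0.662) and with the housekeeping list, and Ctss with TMM alone. Itgam, on the same list, was higher by the size rule (117 and 40 counts, a TMM ratio of 2.93). Of 18 neutrophil markers 12 were counted in normoxia and 15 in CIH, with 1.98% and 10.7%, led by S100a9 (11656 and 4197), S100a8 (10004 and 3561) and Ngp (6932 and 3060 counts). The ratio of the neutrophil shares was 5.40 (4.53 to 6.46 on molecules). Mmp8, Mmp9 and Mpo were at 0 in CIH, and Ly6g, Csf3r, Cxcr2, Elane, Fcnb and Prtn3 in normoxia. Monocyte genes took 0.456% and 0.455%, led by Plac8 (2824 and 275 counts), Ccr2 (2308 and 0) and Ly6c2 (1486 and 40). Glial genes took 0.014% and 0.127%, led by Sparc (183 and 42), Glul (129 and 85) and Mbp (0 and 58). Fibroblast and endothelial genes took 0.048% and 0%, with Pdgfra, Col1a1 and Col1a2 counted in normoxia alone (378, 375 and 296), and lymphoid genes 0.067% and 0%, led by Igkc, Cd79a and Ighm (543, 452 and 305). Sensory neuron genes held 0 and 60 counts, all from Isl1. The part of any of these in the values of the 34 genes was not tested.

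Haem oxygenase was counted in normoxia alone. Hmox1, which opens the haem ring and is a classical NRF2 target in macrophages (chromosome 8, 75093621 to 75100589, plus strand), had 546 and 0 counts, at least 21.2-fold lower on reads and within what 3 molecules allow. With Blvrb, haem breakdown took 6.69% of the members' counts in normoxia and 2.68% in CIH.

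The 3 superoxide and catalase genes split by isoform. Sod1, the copper-zinc dismutase of the cytosol (chromosome 16, 90220754 to 90226329, plus strand), had 639 and 0 counts, 833 and 0 TPM. Sod2, the manganese dismutase of mitochondria, which inflammatory signals induce (chromosome 17, 13006846 to 13040063, plus strand), had 4 and 97 counts, 0.881 and 246 TPM. The ratio for Sod2 was 208 (78.7 to 779 on reads), higher under each scaling tried, but its 97 counts equal 2.49 estimated molecules and the lower bound on molecules was 0.423. Cat, catalase, had 328 and 0 counts. The sub-group took 2.61% and 4.07% of the members' counts but 4.41% and 1.72% of their TPM, a ratio of 0.390, so the direction of its share depends on the unit.

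Txn1, G6pdx and Pgd were counted at like or higher shares in CIH on reads, while Txnrd1 was at 0 there. Txn1, thioredoxin, had 481 and 86 counts and a TMM ratio of 1.53 (1.20 to 1.93 on reads, 0.129 to 19.1 on molecules), and met the size rule with total counts (2.68) and with the housekeeping list (2.30). Txnrd1, the reductase that feeds it, had 424 and 0 counts, so without Txn1 the sub-group was at 0 in CIH. The pentose phosphate enzymes G6pdx and Pgd, which make NADPH, had 426 and 64, and 837 and 100 counts. Their TMM ratios were 1.29 (0.975 to 1.68) and 1.02 (0.824 to 1.26), and neither met the size rule, though G6pdx did on total counts (2.25). None of the 3 passed on molecules.

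**Figure D3:**
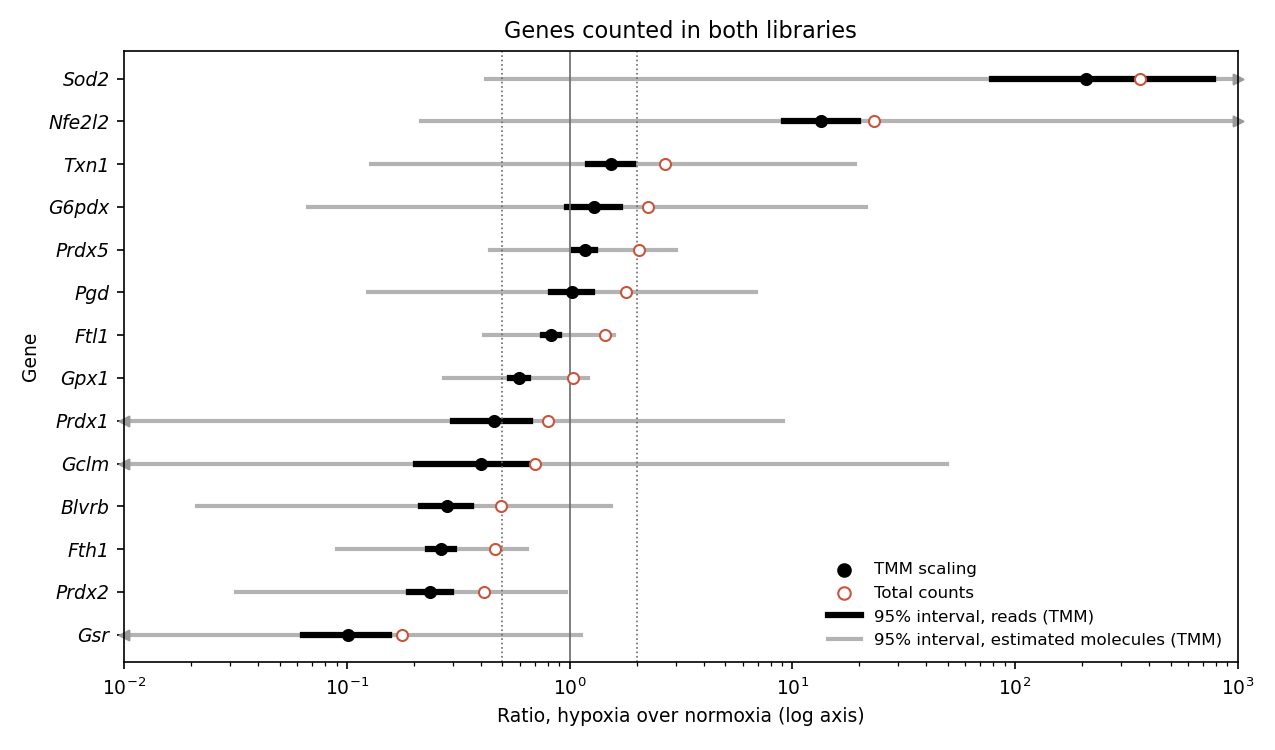
Ratio of CIH over normoxia (log axis) for the 14 genes counted in both libraries, with TMM (filled) and total counts (open), the 95% interval on reads (black) and on estimated molecules (grey, arrowheads where it runs off the axis). Dotted lines mark 2-fold. The grey interval excludes 1 for Fth1 and Prdx2 alone.

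Set against the members' own total, where no scaling enters, 3 sub-groups held most of the counts in both libraries. Ferritin took 37.1% in normoxia and 35.2% in CIH, a ratio of 0.948 (0.883 to 1.02), since the lower Fth1 share (20.2% and 9.73%) was offset by Ftl1 (17.0% and 25.5%). Glutathione genes took 29.4% and 21.7%, a ratio of 0.739 (0.676 to 0.808), with Gpx1 at 17.7% and 19.1% and the 11 other genes at a ratio of 0.226 once Gpx1 was set aside. Peroxiredoxins had a ratio of 1.31 (1.20 to 1.43), NADPH and quinone enzymes 2.03 (1.71 to 2.39) from 3.39% to 6.88%, and thioredoxin 1.49 (1.18 to 1.85) from 2.43% to 3.61%. Haem breakdown had a ratio of 0.401 (0.308 to 0.514). On estimated molecules the interval of all 8 sub-group ratios included 1, so at this depth no sub-group's share was shown to differ. Fth1, Gpx1, Ftl1, Prdx2 and Prdx5 together took 70.6% and 73.4%.

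**Figure D4:**
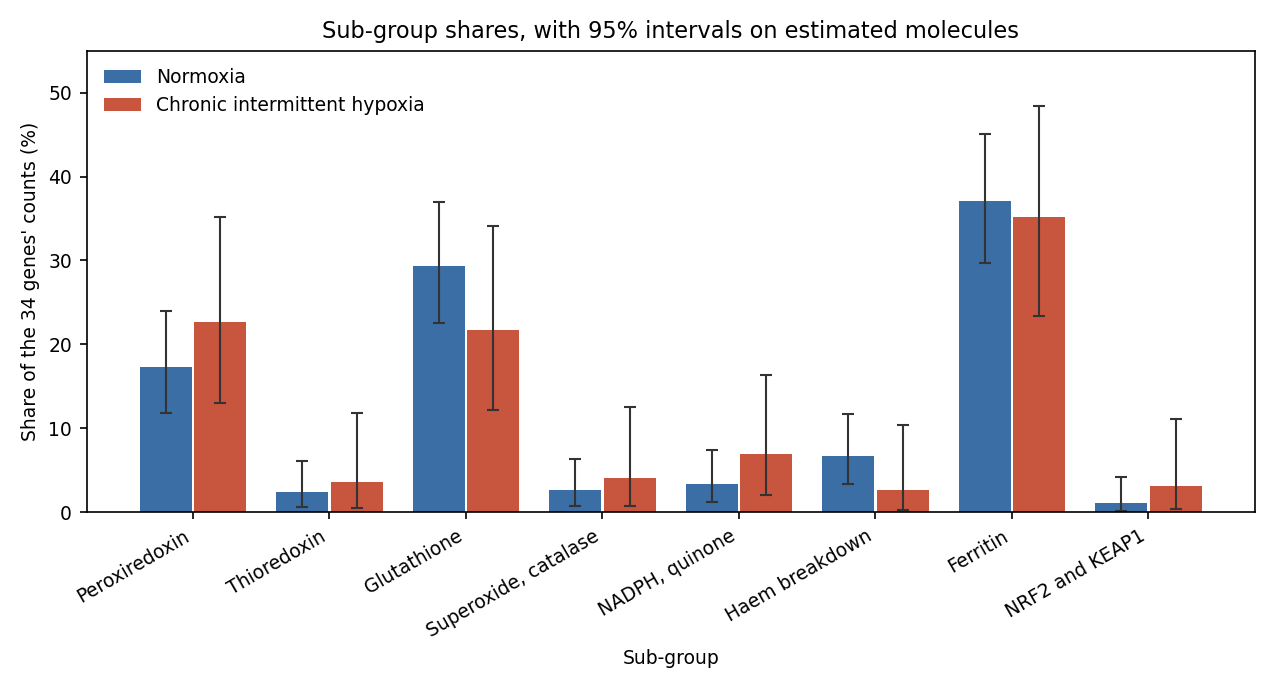
Share of the 34 genes' counts (%) held by each sub-group in normoxia and CIH, 1 library each, with exact 95% intervals on estimated molecules. The intervals of the libraries overlap in every sub-group, ferritin being the largest in both (37.1% and 35.2%).

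The NRF2 regulators had few counts. Nfe2l2, which encodes NRF2 (chromosome 2, 75675513 to 75704641, minus strand), had 48 and 75 counts. Its ratio was 13.4 (9.21 to 19.7 on reads) with a lower bound of 0.214 on molecules. Keap1, whose product marks NRF2 for breakdown, had 354 and 0 counts. NRF2 binds the antioxidant response element, so the RefSeq promoters (GRCm38.p6, 250 bases before to 50 after each start) were searched for its core, TGACNNNGC, on both strands. Of the 34 genes 30 had a promoter there (Gsr, Gclc, Prdx6 and Hmox1 are named only), and 9 of the 30 (30.0%) held the core, against 14.0% of all 27025 genes with a promoter. Counted by promoter, 9 of the 41 promoters of these genes held it, against 12.4% of all 32851 promoters. The match is a description and not a bound site. The windows upstream of the start are shown as the part of each promoter that matched, with the core in capitals, on the strand that carries it, 5′ to 3′.

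Nfe2l2, chr2:75704885-75704913, minus strand, 48 and 75 counts: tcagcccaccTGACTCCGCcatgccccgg
G6pdx, chrX:74428919-74428947, plus strand, 426 and 64 counts: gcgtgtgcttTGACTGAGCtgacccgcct
Prdx1, chr4:116685456-116685484, minus strand, 526 and 28 counts: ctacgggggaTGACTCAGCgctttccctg
Gclm, chr3:122245413-122245441, minus strand, 256 and 12 counts: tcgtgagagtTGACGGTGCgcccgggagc
Txnrd1, chr10:82859104-82859132, minus strand, 424 and 0 counts: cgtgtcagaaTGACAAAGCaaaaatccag
Mgst1, chr6:138140461-138140489, minus strand, 381 and 0 counts: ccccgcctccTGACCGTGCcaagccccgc
Sod1, chr16:90220696-90220724, minus strand, 639 and 0 counts: ggcctgagtcTGACCACGCccaccttggc

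Of these 7 genes, Nfe2l2 was higher in CIH by the size rule, G6pdx met neither direction, Prdx1 and Gclm were lower, and Txnrd1, Mgst1 and Sod1 were lower with 0 counts. That is 1 higher and 5 lower of 7, near the 11.9% and 75.7% of all genes. The cores of Pgd and Srxn1 lay after the start and are not shown.

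Other genes of the same pathways, 121 in a list of their own, were sparse too. Of these 54 were counted in normoxia, 31 in CIH and 61 in neither, and of the 55 with enough counts 7 were higher, 34 lower and 14 neither, beside the 11.9% and 75.7% of all genes. In the list of 29 haem and iron genes, 3 of 19 were higher and 11 lower. Those higher were Lcn2, which binds siderophores (2719 and 1393 counts), the lactoferrin gene Ltf (2986 and 739) and the transferrin receptor gene Tfrc (517 and 132). Their ratios were 4.39 (4.12 to 4.69), 2.12 (1.96 to 2.30) and 2.19 (1.79 to 2.66). With TMM Lcn2 was the only one of the 55 higher on molecules (2.23 to 9.32). With total counts and with the housekeeping list Ltf (1.74 to 8.16 and 1.49 to 7.02) was higher on molecules as well. So was Esd of the glutathione list (lower bounds 1.26 and 1.08). Lcn2 and Ltf are also neutrophil granule genes and stand on that marker list. The mitochondrial iron importer Slc25a37, on the erythroid list, had 3193 and 131 counts, and the iron exporter Slc40a1 and the haemoglobin scavenger receptor Cd163 had 626 and 928 in normoxia and 0 in CIH.

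In the 30 further glutathione genes, 2 of 7 with enough counts were higher, Esd (21 and 135) and the transferase Mgst3 (16 and 40), and 3 lower. Those with most counts were the mitochondrial glutaredoxin Glrx5 (1106 and 231, with a ratio between 1.55 and 2.07), Slc3a2 (807 and 0), the heavy chain of the cystine transporter, and Gstp1 (631 and 0). Of 27 peroxidase and thioredoxin genes, 12 had enough counts, with 2 higher, Selenos (0 and 62) and Selenot (103 and 34), and 6 lower, and Selenop (2576 and 144), Msrb1 (1641 and 100) and Selenow (908 and 28) had most. Of 21 superoxide and NADPH genes none was higher and 7 of 9 were lower, led by Akr1a1 (1543 and 0), while the transketolase gene Tkt (1373 and 157) had a ratio of 0.981 that turned to 1.71 on total counts and 1.47 with the housekeeping list, and the NAD kinase gene Nadk (1011 and 39) one of 0.331. Of 14 genes around NRF2 none was higher and 7 of 8 were lower, all at 0 in CIH, among them Nfe2l1 (794), Nfe2 (537) and Mafk (387). Beside each of these lists stand the 11.9% higher and 75.7% lower of all genes with enough counts. Of the 34 lower genes 29 had 0 counts in CIH, as had 2883 of the 3192 lower genes of the whole table. On molecules none of the 34 passed, where with TMM 1.3% of all genes were lower.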

How the data were processed

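The authors deposited raw read counts per gene for both libraries, and TPM (adjusted for transcript length and library) for the same genes. Per the labels' protocols, the RNA came from a TRIzol-chloroform extraction, and the NEBNext Ultra II kit made the libraries. The aligner STAR 2.5.2b, the counter featureCounts (Subread 1.5.2) and bcl2fastq 2.20 are named per the submitters' processing notes. Not given in the sources used here are genome build, annotation, strand setting and treatment of multi-mapped reads. No molecular identifiers are named. Counts of 174 genes without a symbol (500 in normoxia, 0 in CIH) stayed in the totals. Positions came from GENCODE M21 (GRCm38) by gene identifier, and the authors' build may differ.

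TMM factors (0.757 and 1.32) came from edgeR 4.0.16 in R 4.3.3. DESeq2 1.42.0 was used only for alternative size factors. Intervals were exact (Clopper-Pearson, and for ratios conditional on both counts), and for pairs of genes conditional on the table margins. For ratios of shares the base total was taken as fixed though it includes the genes themselves, so those intervals are approximate. Log2 ratios used a prior count of 0.5. On molecules, counts were divided by 229 and 39 first, the median over genes with no count in the other library and 10 or more in their own, which assumes that most of these stem from 1 molecule. The size rule and its intervals on reads, scaled by total counts, were tested on simulated counts with counting error only. TMM, molecules, shares and pairs were not part of that test.

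Each member with a count is named with both counts and members at 0 by name. Of each other pathway list up to 3 genes with most counts and those higher by the size rule are named, and of each cell type list the 3 with most counts and defining markers at 0. Slc40a1, Cd163, Itgam and Cx3cr1 were named after their values were seen. The members, lists and alternatives were chosen with earlier results of these data known. Alternatives were total counts, size factors, a housekeeping list, other count minimums, 4-fold, another prior count, TPM, and leaving out leading genes.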

Additional observations from a re-analysis of the deposited data

How the results depend on the processing

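The size rule rests on the scaling and on what counts as a unit of evidence. With total counts 6 members and 14 other pathway genes were higher (16.1% of all genes), with the housekeeping list 12 other pathway genes were (15%), and DESeq2 size factors gave the same counts as TMM. With no count minimum 5 members and 12 other pathway genes were higher (20.7% of all genes), with a minimum of 10 also 12 of the latter (21.2%), and 4 at 4-fold (7.97%). On estimated molecules 0 members were higher and 2 lower (with total counts 0 and 0, with the housekeeping list 0 and 1, both added after the values were seen). Of the other pathway genes 1 was higher and 0 lower on molecules with TMM. With total counts and with the housekeeping list Ltf and Esd were higher too. Of the 14 members counted in both libraries 6 were lower and 2 higher, beside 27.9% and 24.9% of the 1108 such genes with enough counts. Of 100 alternatives to single members' log2 ratios, 89 kept direction and side of the size rule, 4 came to meet it (Prdx5, G6pdx and Txn1 with total counts, Txn1 also with the housekeeping list), 4 no longer did (Prdx1 and Gclm with both), and 3 reversed: Gpx1 (0.053) and Ftl1 (0.53) with total counts and Ftl1 (0.31) with the housekeeping list.

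The members' share ratio was 0.670 by TPM and reversed to 1.08 without Fth1. By TPM the sub-group ratios were 1.53 for peroxiredoxins, 2.41 for thioredoxin, 0.937 for glutathione and 3.85 for the NRF2 regulators, and reversed to 0.390 for superoxide and catalase. Thioredoxin without Txn1 (0) and ferritin without Fth1 (1.33) reversed as well. On estimated molecules the values stayed as they were but their intervals took in 1: the members' share (0.958), peroxiredoxins (1.31), thioredoxin (1.49), glutathione (0.739), superoxide and catalase (1.56), NADPH and quinone (2.03), haem breakdown (0.401), NRF2 regulators (2.92), Fth1 over Ftl1 (3.11) and Prdx2 over Prdx5 (4.94). Adding the counts of listed copies gave 3.08 for Fth1 over Ftl1. The cause of these shifts was not tested. With 1 library a group no library could be left out.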

Other observations

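Selenoproteins, which carry selenocysteine and include Gpx1, Gpx3, Gpx4 and Txnrd1, were gathered as a group of 15 after the values were seen. Of these, 12 were counted in normoxia and 8 in CIH. Of 13 with enough counts 3 were higher by the size rule (Selenos, Selenot and Selenoh), 7 were lower and 3 met neither, beside 11.9% higher and 75.7% lower of all genes. Of the 7 lower, 5 had 0 counts in CIH. On estimated molecules 0 passed in either direction, beside 0.19% and 1.3%. The plasma selenium carrier gene Selenop had 2576 counts in normoxia and 144 in CIH, a TMM ratio of 0.479 (0.403 to 0.567 on reads) and 0.837 on total counts. Selenoh had 19 and 47 counts, and Selenon 208 and 0.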
